A study of Mus musculus with 6 samples.

Results

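The interferon-induced GTPases described here were 10 genes of the mouse immunity-related GTPase (IRG) and guanylate-binding protein (GBP) families, namely Igtp, Irgm1, Irgm2, Iigp1, Gbp2, Gbp3, Gbp4, Gbp5, Gbp6 and Gbp7. They were 10 of the 35027 genes in a table of RNA-seq values from sorted mouse thyroid tumor cells. The members were found by symbol, and the family was selected on measured values of the same BrafYAP and YAP libraries. Their difference between these groups is therefore a description, with no test. All 10 symbols were in the table, 4 of them IRG genes and 6 of them GBP genes.

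RNA was profiled in Kate-positive cells from 3 YAP and 3 BrafYAP libraries. The YAP mice carried a Cre transgene that acts in thyroid follicular cells, a Rosa26 allele with rtTA and the fluorescent Kate reporter (RIK), and tetO-YAP S127A, a mutant of YAP that stays in the nucleus. The BrafYAP mice carried all of these and LSL-Braf V600E, a Braf kinase mutant expressed from its own gene after Cre, so that the groups share every named allele except Braf V600E. Per the labels dox chow began at 4 weeks of age in both groups, and about 20000 sorted cells gave a library. Each YAP library pooled 3 tumors and each BrafYAP library held 1 tumor, so that pooling and genotype cannot be told apart. The question addressed was how the cells of these tumors differ when Braf V600E is added to nuclear YAP.

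IRG and GBP proteins are GTPases that interferons induce strongly, interferon gamma above all, in part through the factor IRF1. They gather on the membranes that enclose intracellular microbes and help to break them open, with the autophagy conjugation machinery guiding where they load. Irgm1, Irgm2 and Igtp (also called Irgm3) are regulators that sit on host membranes and keep effector IRG proteins such as Iigp1 inactive there. The GBPs are larger, several of them carry a lipid tail, and some open the way to inflammasome signalling. Epithelial cells and macrophages can both express these genes after interferon.

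The authors' TPM were divided by the length of the whole gene, introns included, so that levels are compared here within a gene unless stated otherwise. Reads per gene were estimated by undoing that division, and the libraries held 26.2 to 36.9 M estimated reads. These reads carry no molecular identifiers and can include PCR copies, so read numbers do not give numbers of molecules. They also do not measure the spread between tumors. Correlations were taken over the 7319 genes with a mean of at least 1 TPM. The YAP libraries correlated at r = 0.874 to 0.942, and BrafYAP 1 with BrafYAP 2 at 0.979. BrafYAP 6 correlated with the other 5 libraries at 0.733 to 0.879, and YAP 1 with the other 5 at 0.733 to 0.935. Between the groups r was 0.733 to 0.939, so libraries of a group were not always closest to each other. The lowest value was that of YAP 1 with BrafYAP 6, so these values do not set BrafYAP 6 alone apart. Of the thyroid markers, Pax8, a follicular lineage factor, was found in all libraries at 75.9 to 219 TPM recalculated with exonic length (exonic TPM). Tg, which encodes thyroglobulin, was at 64.4, 12.0 and 170 exonic TPM in YAP 1, 2 and 3, at 1.29 and 0.532 in BrafYAP 1 and 2 and at 196 in BrafYAP 6.

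Proximal promoter sequences, 250 bases before to 50 bases after each start, were taken from RefSeq (GRCm38.p6), which held 7 of the 10 members in 8 entries. Gbp4, Gbp6 and Iigp1 have no entry in it. The 30-base windows are printed because letters resembling the binding motifs of interferon-activated factors sit in them, and members and the related Tgtp genes of chromosome 11 can be compared. Capitals mark matches to GAAANNGAAA or its reverse complement TTTCNNTTTC, called ISRE-like after the interferon-stimulated response element, and to TTCNNNGAA, called GAS-like after the gamma-activated sequence. Both strands were searched over the 250 bases before the start, and each sequence reads 5′ to 3′ on the strand of its gene.
Gbp5 (chr3:142496759-142496788, plus strand): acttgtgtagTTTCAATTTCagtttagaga
Gbp7 (chr3:142530273-142530302, plus strand): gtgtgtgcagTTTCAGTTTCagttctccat
Gbp3 (chr3:142559992-142560021, plus strand): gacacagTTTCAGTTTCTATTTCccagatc
Gbp2 (chr3:142620594-142620623, plus strand): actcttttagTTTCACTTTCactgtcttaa
Irgm1 (chr11:48871428-48871457, minus strand): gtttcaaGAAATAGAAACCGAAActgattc
Tgtp1 (chr11:48992309-48992338, minus strand): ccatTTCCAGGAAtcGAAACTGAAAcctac
Tgtp2 (chr11:49064268-49064297, minus strand): ccatTTCCAGGAAtcGAAACCGAAAcctac
Igtp (chr11:58199507-58199536, plus strand): ccatTTCTAGGAActGAAACTGAAAgctgt
Irgm2 (chr11:58214898-58214927, plus strand): ccatTTCCAGGAActGAAACTGAAAgctgt

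All 7 member genes with an entry held an ISRE-like match, against 978 of 32851 promoters in the RefSeq set (2.98%). For Gbp3 this was the case in 1 of its 2 entries. A GAS-like match was found for Igtp, Irgm2, Gbp5 and Gbp7, 4 of the 7, against 7.02% of all promoters. In Igtp, Irgm2, Tgtp1 and Tgtp2 the GAS-like letters lay 2 bases before the ISRE-like letters. Such motifs within 4 bases of each other were present in 6 of the 32851 promoters (0.0183%), these 4 included. The motifs lay close to the start in some members, the ISRE-like letters of Irgm1 beginning 30 and 24 bases before it and those of Igtp 34 bases before it, while those of Gbp5 began 165 bases before. A match describes letters and is no measured site of binding.

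The IRG regulators were several-fold lower in the BrafYAP libraries than in the YAP libraries. Igtp (chromosome 11, 58199556 to 58207591, mm10) was at 52.4, 39.2 and 16.2 TPM in YAP 1, 2 and 3 and at 1.83, 0.992 and 3.19 TPM in BrafYAP 1, 2 and 6. The groups did not overlap, and the lowest YAP library was 5.08-fold above the highest BrafYAP library. Irgm1 (chromosome 11, 48861968 to 48871683), which is needed for the control of mycobacteria and for autophagy in macrophages, was at 56.5, 45.1 and 17.4 TPM in the YAP libraries. In the BrafYAP libraries it was at 5.78, 4.07 and 10.9 TPM. Irgm1 again did not overlap between the groups, but YAP 3 was only 1.60-fold above BrafYAP 6. Irgm2 (chromosome 11, 58199618 to 58222782) was at 9.75, 6.30 and 2.77 TPM in YAP and at 0.540, 0.515 and 0.976 TPM in BrafYAP, also without overlap. The annotated span of Irgm2 holds most of Igtp, so reads of these 2 genes can have been shared between them.

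Iigp1 (also called Irga6), an effector IRG that coats the vacuole of parasites, was the member in which the BrafYAP libraries disagreed most. It was at 19.4, 17.5 and 2.67 TPM in YAP 1, 2 and 3 and at 0.301, 0.239 and 16.5 TPM in BrafYAP 1, 2 and 6. In reads this was 9429, 7153 and 1299 in YAP and 136, 152 and 9288 in BrafYAP. In TPM, BrafYAP 6 was 61.0-fold above the mean of the other BrafYAP libraries and near YAP 2, so that the groups overlapped. Without BrafYAP 6 they did not.

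**Figure D1:**
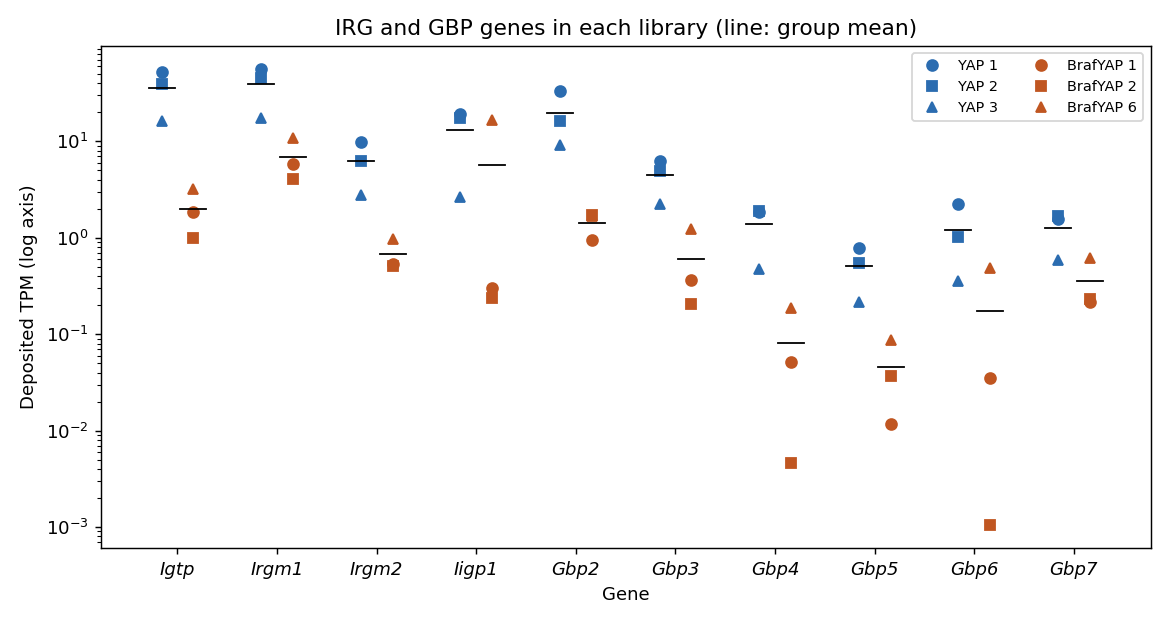
Deposited TPM (log axis) of the 10 IRG and GBP genes in each of the 3 YAP libraries (blue) and the 3 BrafYAP libraries (orange), with a line at each group mean. YAP 3 (blue triangles) was the lowest YAP library for 10 of 10 genes, BrafYAP 6 (orange triangles) was the highest BrafYAP library for 9 of 10, and its Iigp1 point lies among the YAP libraries.

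Among the GBP genes, Gbp2 and Gbp3 had the highest values. Gbp2 (chromosome 3, 142620602 to 142638008), a lipid-anchored GBP recruited to parasite vacuoles, was at 33.5, 16.2 and 9.06 TPM in YAP and at 0.942, 1.71 and 1.67 TPM in BrafYAP. It was the only member for which BrafYAP 6 was not the highest BrafYAP library, and the lowest YAP library was 5.31-fold above the highest BrafYAP library. Gbp3 (chromosome 3, 142560026 to 142573209), a close relative, was at 6.32, 4.88 and 2.21 TPM in YAP and at 0.363, 0.204 and 1.24 TPM in BrafYAP. YAP 3 was 1.78-fold above BrafYAP 6 for Gbp3, and the groups did not overlap.

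The remaining GBP members had the lowest values of the 10, and 177 to 1516 estimated reads in YAP. Gbp5 (chromosome 3, 142493978 to 142522344), known for its part in assembly of the NLRP3 inflammasome, had 648, 381 and 177 estimated reads in YAP and 9, 40 and 84 in BrafYAP. Gbp4 (chromosome 5, 105115767 to 105139586) had 1298, 1101 and 327 reads in YAP and 33, 4 and 152 in BrafYAP. For Gbp5 and Gbp4 every YAP library lay above every BrafYAP library. Gbp7 (chromosome 3, 142530342 to 142550149), linked to the oxidase that kills engulfed microbes, was at 1.55, 1.67 and 0.587 TPM in YAP and at 0.214, 0.232 and 0.623 TPM in BrafYAP. Gbp6 (chromosome 5, 105270702 to 105293698) had 1516, 582 and 238 reads in YAP and 22, 1 and 375 in BrafYAP. For Gbp7 and Gbp6 BrafYAP 6 lay above YAP 3, and BrafYAP 1 and BrafYAP 2 lay below all YAP libraries. Gbp4 overlaps Gbp8 and Gbp9 in the annotation, and Gbp6 and Gbp7 each overlap a predicted gene, so part of their reads may belong to these.

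Over the 10 members, the groups did not overlap for 7, each with BrafYAP below YAP, and overlapped for Iigp1, Gbp6 and Gbp7. Among all 16834 genes with enough reads, BrafYAP lay below YAP without overlap for 17.1% over all 6 libraries. Without BrafYAP 6 the members did not overlap for 10 of 10. The share of all genes was not computed without BrafYAP 6, and separation is easier with fewer libraries, so nothing is read from that count. The members followed the same order of libraries in YAP, where YAP 3 was lowest for 10 of 10 and YAP 1 highest for 8 of 10. YAP 3 held 14.5% (Iigp1) to 39.5% (Gbp3) of the mean of YAP 1 and YAP 2, so that the YAP libraries differed among themselves by several-fold.

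The difference between the groups is given as BrafYAP minus YAP on log2(scaled estimated reads + 1), a scale that keeps the authors' scaling between libraries and undoes the division by length. The IRG regulators differed by -4.16 (SE 0.57, n = 3 libraries per group) for Igtp, -3.10 (SE 0.51) for Irgm2 and -2.48 (SE 0.55) for Irgm1. Iigp1 differed by -3.19 (SE 1.64), its SE being more than 2 times that of each of these. Of the GBP genes, Gbp4 differed by -4.92 (SE 1.23), Gbp6 by -4.75 (SE 1.77) and Gbp5 by -3.68 (SE 0.80). Gbp2 differed by -3.61 (SE 0.51), Gbp3 by -3.17 (SE 0.71) and Gbp7, the member with the smallest difference, by -1.87 (SE 0.58). The median was -3.14 over the 4 IRG genes and -3.65 over the 6 GBP genes, and -3.40 over all 10 members, beside -0.12 over all genes with enough reads. On the scale of the deposited values, log2(TPM + 1), the median of the 10 members was -1.81 beside -0.064 over all genes tested, and a pseudocount of 1 holds down the difference of Gbp4, Gbp5, Gbp6 and Gbp7, whose mean TPM over the 6 libraries were below 1.

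**Figure D2:**
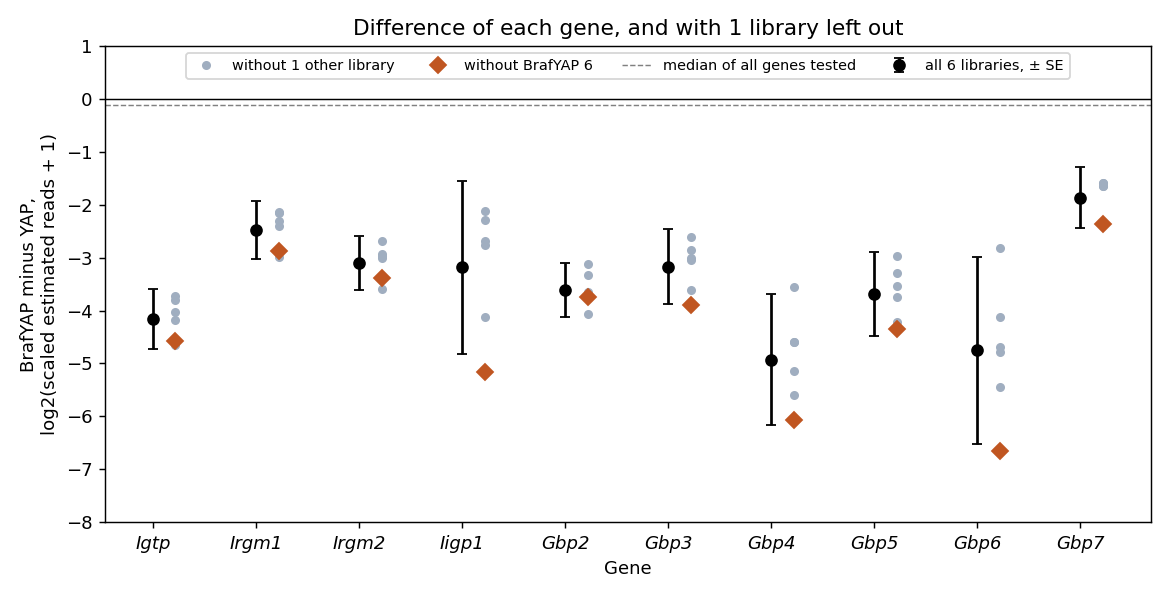
BrafYAP minus YAP on log2(scaled estimated reads + 1) for each member over all 6 libraries (black, ± SE from limma), with the values obtained when 1 library was left out beside it (grey) and without BrafYAP 6 (orange diamonds). Every value lies below the median of all genes tested (dashed, -0.12), and leaving out BrafYAP 6 moved Iigp1 from -3.19 to -5.16 and Gbp6 from -4.75 to -6.64.

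In group means of the deposited values, Igtp had the largest ratio of YAP to BrafYAP among the members, 17.9, from 36.0 ± 18.3 TPM in YAP and 2.01 ± 1.11 TPM in BrafYAP (mean ± SD, n = 3 each). The ratio of mean TPM was 17.2 for Gbp4, 13.6 for Gbp2, 11.3 for Gbp5, 9.27 for Irgm2, 7.41 for Gbp3, 7.03 for Gbp6, 5.73 for Irgm1, 3.56 for Gbp7 and 2.32 for Iigp1. Iigp1 came last because the BrafYAP mean, 5.67 ± 9.36 TPM, was set by BrafYAP 6. In limma, 0 of the 6 members with a mean of at least 1 TPM passed an adjusted p of 0.05, where 0.246% of all 7319 genes tested did. An unadjusted p under 0.05 was found for 5 of the 6 and for 19.9% of all genes tested. On the reads 0 of 10 members and 0.0% of the 16834 genes passed it, while 9 of 10 members, all but Iigp1, had an unadjusted p under 0.05 with a lower value in BrafYAP, as did 10.5% of all genes. Because the family was selected on this contrast, nothing is read from these counts. For a single gene the exact permutation test of 3 against 3 libraries cannot give a two-sided p below 0.1.

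Removing libraries kept the sign of every member and moved the size of 2 of them by over 1.5 times. Iigp1 differed by -5.16 without BrafYAP 6 and by -2.11 without BrafYAP 2, against -3.19 with all libraries. Gbp6 differed by -2.82 without BrafYAP 2, the library in which it had 1 read, and by -6.64 without BrafYAP 6. Without BrafYAP 6 the median of the 10 members was -4.12. Over all alternatives tried on the reads, Gbp6 ranged most widely, from -7.35 to -2.82, followed by Iigp1 from -6.09 to -2.11 and Gbp4 from -6.73 to -3.56, while Igtp ranged from -5.07 to -3.73 and Gbp2 from -4.20 to -3.12.

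With the values recalculated by exonic length, levels could be compared between genes. Igtp and Gbp2 were the most abundant members in YAP, at 369 ± 183 and 351 ± 223 exonic TPM (mean ± SD, n = 3), a difference within their spread. Irgm1 followed at 171 ± 83.9, Irgm2 at 102 ± 55.5, Iigp1 at 96.3 ± 66.0 and Gbp3 at 46.6 ± 20.9 exonic TPM. Within each YAP library Igtp and Gbp2 were above Irgm1, and Irgm1 was above Irgm2. The order of Iigp1 against Irgm2 and against Gbp3 changed between YAP libraries. Gbp3 was separated from the genes after it, since its lowest YAP library (24.4) was above their highest (22.5, Gbp6 in YAP 1). Gbp6 (12.1 ± 9.56), Gbp7 (11.5 ± 5.10), Gbp4 (11.4 ± 6.38) and Gbp5 (5.65 ± 3.07) formed the low end. In BrafYAP, Iigp1 was at 43.2 ± 71.3, Irgm1 at 31.1 ± 15.6, Gbp2 at 26.9 ± 8.19 and Igtp at 21.4 ± 11.6 exonic TPM. Irgm1 was above Igtp in each BrafYAP library, and the other pairs of these genes changed order between libraries. Without BrafYAP 6 the mean of Iigp1 was 2.09 exonic TPM, below Gbp2 (25.0), Irgm1 (22.4) and Igtp (15.2). Igtp made up 31.4% of the summed exonic TPM of the 10 members in YAP and 14.6% in BrafYAP (19.1% without BrafYAP 6), and Irgm1 14.5% and 21.2% (28.1% without BrafYAP 6).

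Summed over the 10 members, the level was 1810, 1180 and 536 exonic TPM in YAP 1, 2 and 3 and 81.3, 77.8 and 282 exonic TPM in BrafYAP 1, 2 and 6. The lowest YAP sum was thus above the highest BrafYAP sum, which was that of BrafYAP 6. The IRG genes contributed 738 exonic TPM to the YAP mean and 107 to the BrafYAP mean, and the GBP genes 439 and 39.8. Without BrafYAP 6 the BrafYAP means were 48.6 for the IRG genes and 30.9 for the GBP genes, since BrafYAP 6 held 224 exonic TPM of IRG genes against 56.9 and 40.3 in BrafYAP 1 and 2.

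The 27 IRG and GBP genes measured, the 10 members and 17 further family genes, lie in clusters in the genome, and the members' clusters held most of the family. On chromosome 11, between 48861968 and 58222782, lie Irgm1, Igtp, Irgm2 and 7 further IRG genes. They sit in separate groups, Irgm1 to Tgtp2 (48861968 to 49064206) and Gm12250 to Irgm2 (58187739 to 58222782), counted together here. Their median difference was -2.76 on log2(scaled reads + 1), and 6 of 10 lay below YAP without overlap, beside 17.1% of all genes. On chromosome 3, between 142493978 and 142638008, lie Gbp5, Gbp7, Gbp3, Gbp2b and Gbp2, with a median difference of -3.61 and 4 of 5 below without overlap. On chromosome 5, between 105014150 and 105346472, lie Gbp8, Gbp9, Gbp4, Gbp10, Gbp6 and Gbp11, with a median of -4.19 and 3 of 6 below without overlap. Irgc1 and Irgq on chromosome 7 were not among the lower genes, with differences of 1.66 (SE 0.70) and -0.07 (SE 0.41), the latter changing sign when single libraries were left out. Irgc1, expressed mainly in testis, had only 13 to 110 reads.

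The high value of Iigp1 in BrafYAP 6 was shared by its neighbours on chromosome 18, between 60212080 and 60392634. Gm4841 had 414, 370 and 118 reads in YAP, 2 and 0 in BrafYAP 1 and 2, and 941 in BrafYAP 6. Gm4951 had 310, 105 and 46 reads in YAP, 23 and 6 in BrafYAP 1 and 2, and 1026 in BrafYAP 6. F830016B08Rik had 435, 176 and 76 reads in YAP, 5 and 9 in BrafYAP 1 and 2, and 370 in BrafYAP 6. All 4 family genes there had more in BrafYAP 6 than in the lowest YAP library, as did 4 of 10 on chromosome 11, 1 of 5 on chromosome 3 and 3 of 6 on chromosome 5. The median ratio of BrafYAP 6 to the mean of BrafYAP 1 and BrafYAP 2 was 60.4 for the 4 genes, beside 3.28 on chromosome 11, 3.60 on chromosome 3 and 5.69 on chromosome 5. These are values of 1 library and carry no test. Reads may also have been divided among these 4 genes of the same family, so they need not be independent of each other.

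**Figure D3:**
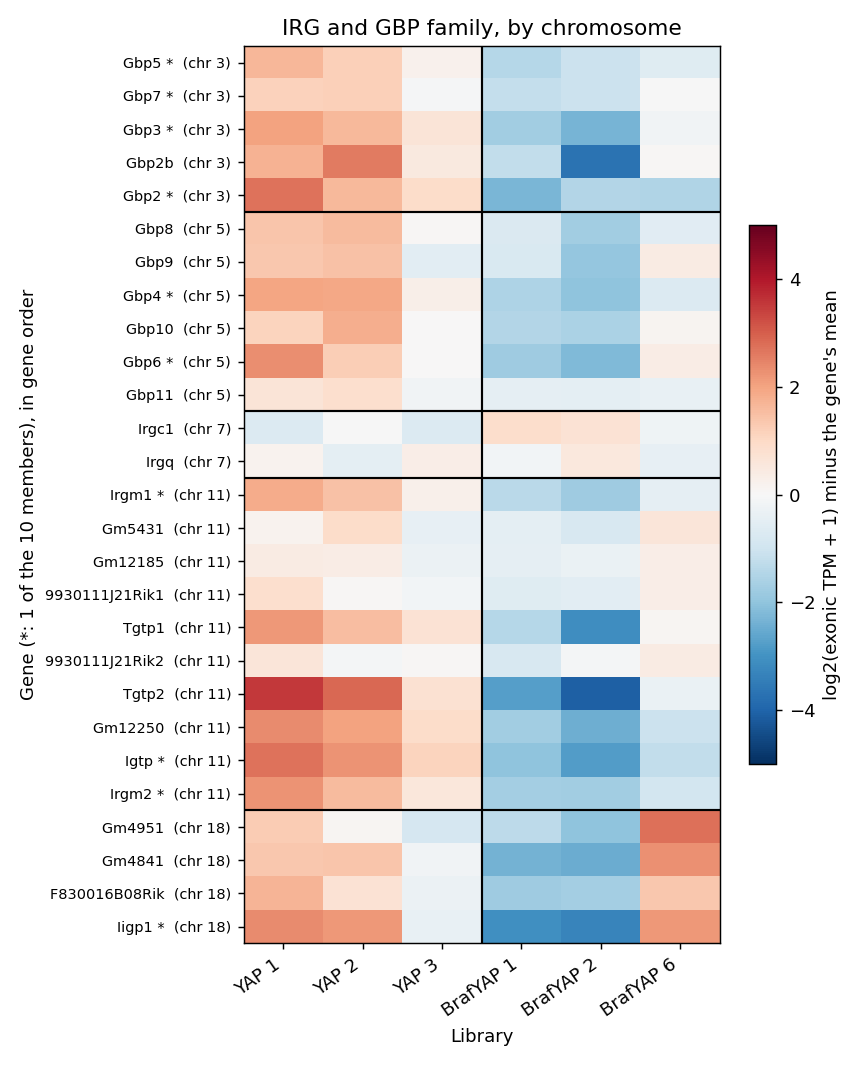
log2(exonic TPM + 1) of 27 IRG and GBP genes (rows, in gene order within each chromosome, members starred) in the 6 libraries (columns), each minus the mean of the gene over the libraries. Most rows are red in YAP 1 and YAP 2, pale in YAP 3 and blue in BrafYAP 1 and BrafYAP 2, and the 4 genes of the bottom block are red in BrafYAP 6, with BrafYAP 6 above the lowest YAP library for 4 of 4.

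Among the 17 family genes that are not members, 7 had an unadjusted p under 0.05 with a lower value in BrafYAP and 1, Irgc1, with a higher value. The shares of all genes were 10.5% and 9.68%. Of the 17, 6 lay below YAP without overlap, beside 17.1% of all genes. None of these passed the adjusted threshold in limma on the TPM or on the reads. Their median difference was -2.39 on the reads, beside -3.40 for the members, and -3.36 beside -4.12 without BrafYAP 6. Tgtp1 and Tgtp2, near-identical copies of an effector IRG (Irgb6) between which reads may have been divided, were the most abundant. Tgtp1 was at 106, 70.7 and 36.5 TPM in YAP and at 8.18, 2.45 and 23.8 TPM in BrafYAP, a difference of -3.05 (SE 0.81). Tgtp2 was at 40.6, 26.6 and 5.55 TPM in YAP and at 0.340, 0.0448 and 2.52 TPM in BrafYAP, a difference of -5.70 (SE 1.40). For both genes every BrafYAP library lay below every YAP library.

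Further GBP genes of the same clusters had like patterns. Gbp2b, the gene also called Gbp1, had 1368, 2180 and 526 reads in YAP and 131, 0 and 447 in BrafYAP. Gbp8 had 873, 875 and 308 reads in YAP and 152, 81 and 217 in BrafYAP. Both did not overlap between the groups, whereas Gbp9 (1272, 1194 and 280 against 222, 92 and 701 reads) and Gbp10 (237, 359 and 83 against 3, 0 and 114 reads) overlapped through BrafYAP 6. The larger interferon-induced GTPases outside these families gave a median of -2.47 over 4 genes, and of -3.39 without BrafYAP 6. With all libraries 3 of these genes were lower at an unadjusted p under 0.05, beside 10.5% of all genes. Of these, Mx2, an antiviral GTPase, had 301, 226 and 226 reads in YAP and 55, 55 and 65 in BrafYAP, a difference of -2.32 (SE 0.35). Its paralog Mx1 had 317, 149 and 102 reads in YAP and 11, 14 and 193 in BrafYAP, so that Mx1 overlapped through BrafYAP 6 and Mx2 did not.

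The receptor genes upstream of the family were not lower as a group, and the ligands had too few reads for a comparison. Ifng, the gene of interferon gamma, chosen here after its values were seen, had 3, 2 and 0 estimated reads in YAP and 0 in each BrafYAP library, at or under the floor of 3 reads. Ifnb1, the gene of interferon beta, likewise chosen, had 10, 1 and 0 reads in YAP and 0, 0 and 31 in BrafYAP 1, 2 and 6. Of 6 ligand and receptor genes with enough reads, 0 were lower and 1 was higher at an unadjusted p under 0.05, with a median of 0.56. Over all genes 10.5% were lower and 9.68% higher at that p. Ifngr1, the ligand-binding chain of the interferon gamma receptor, was at 140, 240 and 161 exonic TPM in YAP and at 153, 128 and 62.1 in BrafYAP, with a difference of -0.77 (SE 0.42). Ifngr2, the other chain, was at 8.75, 37.8 and 17.2 exonic TPM in YAP and at 39.2, 61.1 and 54.7 in BrafYAP, with a difference of 1.45 (SE 0.54). Ifngr1 overlapped between the groups, and Ifngr2 overlapped on the deposited TPM but not on exonic TPM.

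The list of 12 JAK, STAT and IRF genes holds JAK family kinases besides transcriptional regulators. At an unadjusted p under 0.05, 8 of the 12 were lower in BrafYAP, none of them a kinase, and 1, a JAK kinase, was higher. Over all genes 10.5% were lower and 9.68% higher at that p. Of the 12, 8 lay below YAP without overlap, beside 17.1% of all genes, and the median was -1.20. Irf1, which acts on GBP promoters, was at 109, 196 and 130 exonic TPM in YAP and at 62.9, 61.9 and 72.8 in BrafYAP, a difference of -1.15 (SE 0.32). Irf7 differed by -3.04 (SE 0.47) and Irf9, which binds the ISRE, by -1.26 (SE 0.36), both without overlap. None passed the adjusted threshold on the TPM or the reads.

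The inhibitors of the pathway went in both directions, with 2 of 7 lower and 1 higher at an unadjusted p under 0.05. Over all genes 10.5% were lower and 9.68% higher at that p. Socs3, a feedback inhibitor of JAK signalling, was at 24.8, 157 and 35.4 exonic TPM in YAP and at 215, 356 and 337 in BrafYAP, a difference of 2.46 (SE 0.69). Usp18, which restrains type I interferon signalling and is itself interferon-induced, differed by -2.65 (SE 0.38), and Ptpn6, a phosphatase abundant in blood cells, by -1.78 (SE 0.43). Each of these 3 genes had groups that did not overlap.

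The machinery that loads or anchors the GTPases was not lower as a group. Of 11 autophagy conjugation genes 0 were lower and 2 higher at an unadjusted p under 0.05, with a median of 0.07. Of 5 prenylation genes 0 were lower and 1 higher, with a median of 0.39. Over all genes with enough reads 10.5% were lower and 9.68% higher at that p. Sqstm1, the adaptor p62, was at 102, 1122 and 416 exonic TPM in YAP and at 1592, 1189 and 1541 in BrafYAP, a difference of 1.93 (SE 0.80). Rce1, a protease that trims prenylated proteins such as Gbp2, differed by 0.88 (SE 0.42) with overlapping groups. Among 8 inflammasome and pyroptosis genes, on which GBP proteins act, 5 were lower and 0 higher at an unadjusted p under 0.05, with a median of -1.05. Gsdmd, the pore protein of pyroptosis, differed by -0.70 (SE 0.39) with overlapping groups.

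Interferon-responsive genes that are no GTPases were also mostly lower. Of 13 interferon gamma responsive genes with enough reads 11 were lower and 0 higher at an unadjusted p under 0.05, with a median of -1.98. Of 14 type I interferon effector genes 13 were lower and 0 higher, with a median of -2.89. Over all genes with enough reads 10.5% were lower and 9.68% higher at that p. On the TPM, Cxcl10, Cxcl11, Isg15, Rsad2, Oasl1 and Bst2 passed the adjusted threshold in limma with an adjusted p of 0.0468. The members did not, but Igtp and Gbp2 came close, at an adjusted p of 0.0511 in the same limma fit. No gene passed on the reads, with no filter, with the replicate block, or without YAP 1, YAP 3, BrafYAP 1 or BrafYAP 2. The lists were chosen with earlier results of these libraries known, so that their direction is not independent of the members.

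**Figure D4:**
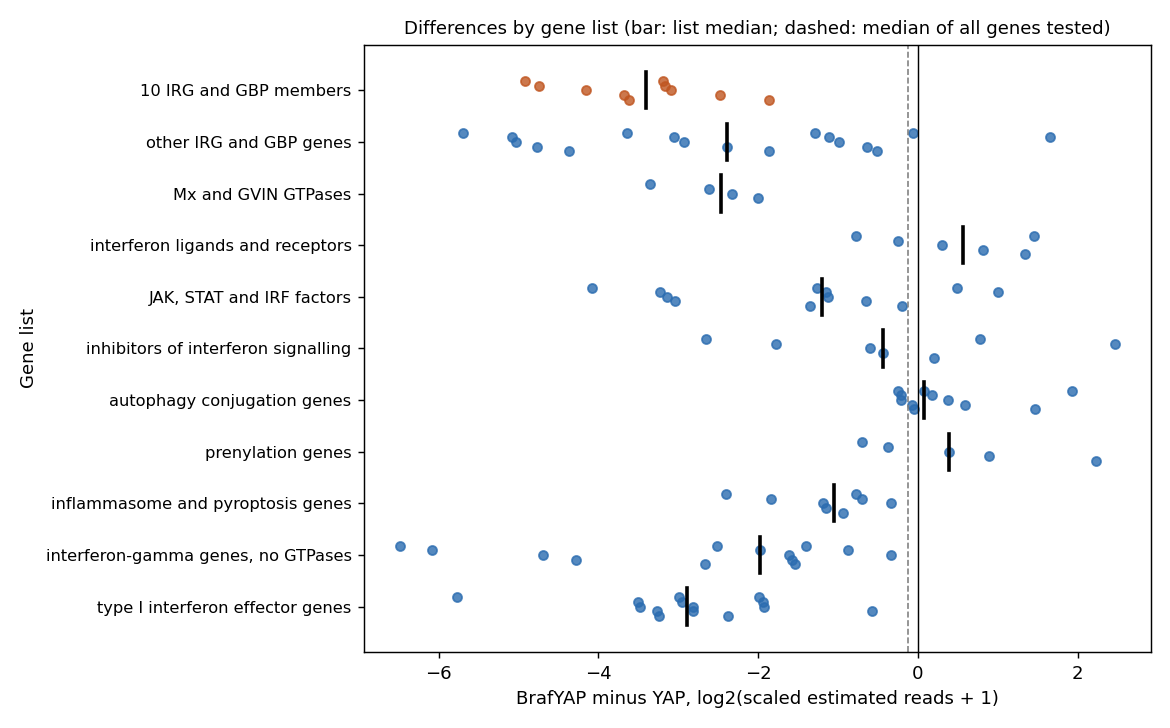
BrafYAP minus YAP on log2(scaled estimated reads + 1) for each gene with a mean of at least 10 scaled reads (points), by gene list, with a bar at the median of the list and a dashed line at the median of all genes tested (-0.12). The 10 members (orange, median -3.40) and type I interferon effector genes (median -2.89) lie to the left, and autophagy conjugation genes (median 0.07) and prenylation genes (median 0.39) lie around 0.

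Markers of cells other than thyroid tumor cells moved with the members in part. Summed over 10 macrophage and myeloid markers, the level was 49300, 39700 and 15300 exonic TPM in YAP 1, 2 and 3 and 15000, 10800 and 4290 exonic TPM in BrafYAP 1, 2 and 6. Of the 10 markers 7 lay below YAP without overlap, beside 17.1% of all genes. Adgre1, which encodes the macrophage protein F4/80, had 1966, 2825 and 475 reads in YAP and 441, 401 and 293 in BrafYAP, and Ptprc, the leukocyte gene CD45, 2473, 1983 and 1623 reads against 553, 521 and 983. In bulk libraries fewer cells of a type and less RNA per cell cannot be told apart, and the part of myeloid RNA in the members' difference was not tested. YAP 3 and BrafYAP 1 had nearly equal myeloid sums, a ratio of 1.02, but Lyz2 alone, the lysozyme gene, made up 68.5 to 84.6% of the sum in each library. Without Lyz2 the ratio was 1.41, and single markers ranged from 0.662 (Itgam) to 2.43 (Aif1), with 7 of 10 higher in YAP 3 and the complement genes C1qa, C1qb and C1qc at 1.68, 2.03 and 2.23. This pair of libraries was chosen, and these marker genes are named, after their values were seen. The member sum was 6.59-fold higher in YAP 3 than in BrafYAP 1, with all 10 members higher, from 2.75-fold for Gbp7 to 18.1-fold for Gbp5. BrafYAP 6 had the lowest myeloid sum of the 6 libraries and the highest member sum of the BrafYAP libraries.

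Expressed per 1000 exonic TPM of myeloid markers, the members summed to 36.8, 29.7 and 35.1 in YAP 1, 2 and 3, to 5.41 and 7.20 in BrafYAP 1 and 2, and to 65.7 in BrafYAP 6. With Lyz2 left out of the markers, the ratio was 174, 94.5 and 126 in YAP, 27 and 46.6 in BrafYAP 1 and 2 and 220 in BrafYAP 6. On both ratios BrafYAP 1 and 2 were lowest and BrafYAP 6 was highest, and the ratios were chosen after the values were seen. Summed over 11 T and NK cell markers, the level was 27.4, 23.4 and 14.8 exonic TPM in YAP and 7.03, 3.10 and 25.3 exonic TPM in BrafYAP, so that BrafYAP 6 stood with the YAP libraries. Cd3e, a part of the T cell receptor complex, had 42, 25 and 15 reads in YAP and 1, 1 and 35 in BrafYAP. The endothelial marker Pecam1 was highest in BrafYAP 6, at 696 reads against 23 to 128 in the other libraries, and the sum over 6 endothelial markers was 4.13 to 32.4 exonic TPM in YAP, 3.23 and 2.08 in BrafYAP 1 and 2 and 25.9 in BrafYAP 6. Epcam, an epithelial adhesion gene, was at 14.4 to 50.7 exonic TPM in YAP and at 74.6, 65.0 and 283 in BrafYAP, and it was 1 of 7 epithelial markers higher without overlap. The sums over the 7 markers overlapped, at 7490, 10200 and 23000 exonic TPM in YAP and 22700, 14400 and 9200 in BrafYAP, and Krt19 and Cldn4 differed by -0.60 and -0.66. Col1a1, a fibroblast collagen, was at 41.8 to 82.6 exonic TPM in YAP and at 11.3 to 34.2 in BrafYAP. Other fibroblast markers went the other way. On the reads 1 of the 6 lay below YAP and 2 lay above YAP without overlap, with a median difference of 0.57. Over 6 fibroblast markers the sums were 124 to 233 exonic TPM in YAP and 110 to 266 in BrafYAP, and over 4 B cell markers 0.564 to 5.33 and 0.249 to 4.73. The part of these cells in the members' values was not tested.

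**Figure D5:**
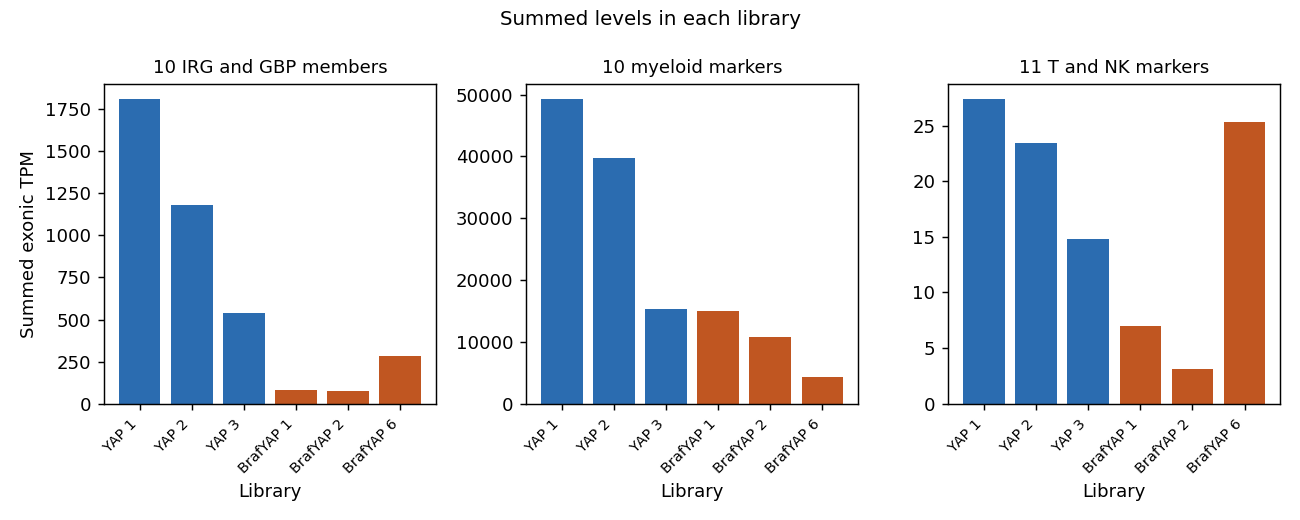
Summed exonic TPM of the 10 members (left), 10 myeloid markers (middle) and 11 T and NK cell markers (right) in the 3 YAP libraries (blue) and the 3 BrafYAP libraries (orange), each axis starting at 0. YAP 3 and BrafYAP 1 have myeloid sums of 15300 and 15000, mostly Lyz2 (72.1 and 79.9%), with a ratio of 1.41 without Lyz2, and member sums of 536 and 81.3. BrafYAP 6 has the lowest myeloid sum (4290) and a T and NK sum of 25.3.

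Genes with the most similar pattern to the members were sought by Pearson's r, over the 6 libraries, between log2(TPM + 1) and the mean log2(TPM + 1) of the 10 members, which was 3.27, 2.92 and 1.91 in YAP and 0.71, 0.63 and 1.50 in BrafYAP. The 5 named genes closest to it were Tgtp2 (r = 0.9993), H2-T22, a nonclassical MHC class I gene (0.9948), Zbp1, a sensor of nucleic acids (0.9908), Cd59a, a complement inhibitor (0.9903), and Trex1, a DNA exonuclease (0.9894). Zbp1 was at 4.15, 2.98 and 1.12 TPM in YAP and at 0.114, 0.140 and 0.469 TPM in BrafYAP. H2-T22 was at 41.0, 35.9 and 21.1 TPM in YAP and at 8.10, 8.60 and 14.2 TPM in BrafYAP. Of 6118 genes compared, 75 reached an r of at least 0.95. The points share their libraries, groups and depth, so these correlations over 6 libraries describe likeness of pattern and no more.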

How the data were processed

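Tumor cells were sorted on Kate from mouse thyroids, and their total RNA was sequenced in 6 libraries, grouped by the titles as YAP (3) and BrafYAP (3). The labels start dox at 4 weeks, whereas the study's text also gives 3 months, and its methods describe a single tumor of a mouse as a replicate where the labels pool 3 for YAP; the labels were followed. RNA was amplified with SMART-Seq v4 (12 cycles), libraries took 8 PCR cycles, and paired reads of 50 bases were obtained. The submitters' processing notes name STAR 2.6.1d, bcl2fastq 2.2 and Partek, and the build was mm10 with Ensembl release 95.

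The authors deposited TPM with 0.0001 added, in columns that each total 181217.6. Low values (under 200 reads) multiplied by genomic span were within 0.05 of whole multiples of a per-library step in 71.7 to 76.0% of cases, against 15.3 to 26.5% with exonic length, so the deposited TPM were taken as divided by span. Estimated reads undo this division for the 34645 genes at a single GENCODE M21 locus, which gives the depth of each library. Expectation-maximization counting can divide reads among similar genes, and no strand was stated.

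TPM are not counts, so limma 3.58.1 in R 4.3.3 was used (lmFit, eBayes with trend, two-sided) on log2(TPM + 1). Genes whose mean TPM reached 1 entered, 7319 in all, and p-values were adjusted over them (Benjamini-Hochberg, threshold 0.05). The same fit on log2(scaled reads + 1), mean at least 10, covered 16834 genes. Exonic TPM are estimated reads divided by exonic length and scaled to the same total in every library. Members and lists were chosen with earlier results of these data known. All members were named. Measured family genes and defining cell markers (Tg, Pax8, Epcam, Ptprc, Cd3e, Adgre1, Pecam1, Col1a1) could be named, and of each further list those past the threshold and up to 4 with the highest mean; exceptions are stated, and some items are not reported here. Alternatives were another pseudocount, other filters, quantile normalization, no trend, array weights, reads, exonic length, a replicate block and leaving out each library.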

Additional observations from a re-analysis of the deposited data

How the results depend on the processing

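The count of genes past the adjusted threshold was 18 in limma on the TPM. It was 1 with a pseudocount of 0.1, 0 with no filter (3886 unadjusted), 3 with a mean of at least 10, 47 after quantile normalization, 1 without the trend, 1393 with array weights, 0 on the estimated reads (3404 unadjusted) and 62 with exonic length. Leaving out each library gave 0 to 465 genes, 465 without YAP 2 and 0 without YAP 1, YAP 3, BrafYAP 1 or BrafYAP 2, so a count over all genes rests on single libraries here. With the replicate block over the shared numbers 1 and 2 it was 0 (987 unadjusted). The deviations of libraries with the same number correlated at -0.0483 and 0.0619. With so few libraries these values cannot tell whether a shared number means a shared batch, and the labels give no batch. The median difference of the 10 members was -1.81 on log2(TPM + 1). It was -2.89 with a pseudocount of 0.1, -3.40 on the reads, -2.80 with exonic length and -2.45 with the replicate block, and -2.25 to -1.39 with 1 library left out. The median of the 17 other family genes, -0.208, was -1.07, -2.39 and -1.42 under the first 3 of these alternatives. On log2(TPM + 1) it was -1.94 over the 6 of them with a mean of at least 1 TPM, and a pseudocount of 1 holds down the rest. On the reads, Irgq changed from -0.07 to 0.04, 0.10, 0.00473 and 0.17 without YAP 1, YAP 3, BrafYAP 1 and BrafYAP 6 and to 0.33 with the replicate block, and Gm4951 from -1.29 to 0.30 without BrafYAP 2. Leaving out each library gave -0.367 to 0.17 for Irgq and -3.36 to 0.30 for Gm4951. The cause was not tested. Of the alternatives, 370 values kept direction and side of the threshold, 27 passed it only under the alternative, 29 moved in size and 6 changed sign. The replicate block and array weights were also tried on the reads after seeing the data.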
